A study of Mus musculus with 22 samples.

Results

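The genes described here are 10 transcription factor genes of the forebrain and eye field: Six3, Six6, Hesx1, Lhx2, Lhx5, Emx2, Nr2e1, Pax6, Otx1 and Nkx2-1. They were chosen by name, with earlier results of these data known. Shares of called members set beside shares of all genes are therefore descriptions. All 10 were found by their Ensembl identifiers among the 37680 gene IDs of the deposited table. The most anterior part of the neural plate becomes the telencephalon, the hypothalamus and the eyes, and a small network of homeodomain factors and 1 nuclear receptor marks that territory. Six3, Hesx1 and Otx factors act early to keep the anterior neural plate from taking a more posterior identity. Lhx2, Pax6 and Six6 then pattern the eye field, Emx2 and Nr2e1 the dorsal telencephalon and its progenitors, and Nkx2-1 the ventral forebrain, while Nkx2-1 is also a gene of the thyroid and lung.

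The 22 libraries are of total RNA from pools of whole mouse embryos, all of the C57BL/6 background. Embryos of the Oct4 line had the genotype ROSA26tg/+; Oct4tg/+ and embryos of the Nanog line ROSA26tg/+; Nanogtg/+, in control and induced groups alike. Induced groups received doxycycline through the mother, from E4.5 for collection at E7.5 (an injection, then drinking water) and from E6.5 for collection at E9.5 (drinking water), whereas control groups are labelled as without it. The Oct4 line had 3 control and 3 induced pools at each stage, and the Nanog line had 2 control and 3 induced pools at each stage. A pool held 8 to 12 embryos at E7.5 and 3 embryos at E9.5, so that differences between single embryos are averaged within a pool. The series describes the pools of a stage as biological replicates, and p-values measure the spread between them. The labels do not name the promoter that drives either transgene. Doxycycline was given to no group without a transgene, so an effect of the drug and an effect of the transgene cannot be told apart.

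The sequences just upstream of the transcription start are shown for 3 members whose levels went different ways in these embryos. Hesx1 was the member that was lower at E9.5 than at E7.5, and Six3 and Six6 are close relatives of which Six6 fell the more after Oct4 induction at E9.5. Each run is the 250 bases before the RefSeq start in the build GRCm38.p6, given 5′ to 3′ on the strand of the gene. Capitals mark matches to CCAAT on either strand (read as ATTGG on the other) or to the palindrome ATGCAT. The Hesx1 sequence lies at chr14:27000112-27000361, the Six3 sequence at chr17:85620584-85620833 and the Six6 sequence at chr12:72939632-72939881, all on the + strand.
Hesx1: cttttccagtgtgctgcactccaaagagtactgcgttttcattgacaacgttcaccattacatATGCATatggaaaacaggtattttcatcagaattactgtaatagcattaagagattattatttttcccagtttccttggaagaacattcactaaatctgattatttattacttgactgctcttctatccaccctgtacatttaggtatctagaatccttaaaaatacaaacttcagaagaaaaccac
Six3: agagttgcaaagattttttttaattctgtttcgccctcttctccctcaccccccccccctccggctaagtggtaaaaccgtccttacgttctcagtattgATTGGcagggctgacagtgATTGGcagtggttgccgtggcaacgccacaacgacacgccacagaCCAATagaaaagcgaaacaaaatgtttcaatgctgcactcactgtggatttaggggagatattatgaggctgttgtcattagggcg
Six6: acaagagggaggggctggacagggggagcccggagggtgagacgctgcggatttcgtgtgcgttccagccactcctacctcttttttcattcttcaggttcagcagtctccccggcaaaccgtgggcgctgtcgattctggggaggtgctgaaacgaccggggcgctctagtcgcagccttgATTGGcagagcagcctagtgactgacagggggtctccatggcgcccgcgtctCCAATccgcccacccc
The Hesx1 sequence was AT-rich, with a GC content of 34.0% and 2 CpG dinucleotides. The medians over all 32851 promoters of the RefSeq table were 52.4% and 6 CpG. Six3 had 48.8% GC and 10 CpG, and Six6 had 62.8% GC and 17 CpG. Six3 held 3 matches to CCAAT and Six6 held 2. Of the 8 members with an entry, 4 (Emx2, Pax6, Six3 and Six6) held at least 1 match. Over all promoters, counted by start, the share was 33.8%. The 8 members had 10 starts, and 1 of 2 Pax6 starts matched, so counts by gene and by start differ. The octamer ATGCAAAT, the classical letters bound by POU factors such as Oct4, was searched on both strands and was in none of the 8 members and in 1.6% of all promoters. The shorter ATGCAT, searched after the Hesx1 sequence had been read, was in Hesx1 and in 1 of 2 Pax6 starts, and in 4.45% of all promoters. Neither TAATTA, a homeodomain core found in 4.84% of all promoters, nor TATAAA, found in 12.4%, matched in the members. Such matches describe the letters in this window and no binding. Lhx5 and Otx1 had no entry.

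Library totals ran from 4.72 to 42.3 M counts (M for mega), and a count of 0 allows up to 3 counts, which was 0.0709 to 0.636 CPM (the count scaled to the library total) in a library. The induced genes followed their labels. Pou5f1, the gene of Oct4, read 203 to 242 CPM in controls and 477 to 606 CPM in induced pools of the Oct4 line at E7.5, and 0.423 to 1.295 and 257 to 283 CPM at E9.5. Nanog in its own line read 17.2 to 22.8 and 53.9 to 117 CPM at E7.5, and 2.06 to 2.35 and 348 to 354 CPM at E9.5. Pou5f1 was also higher in the induced pools of the Nanog line at E7.5, at 460 to 581 CPM against 222 to 245 CPM in their controls. Likewise, Nanog read 24.3 to 33.98 CPM in the induced pools of the Oct4 line at E7.5, against 17.2 to 20.5 CPM in their controls. Markers of other tissues were present, as in whole conceptuses: 6 visceral endoderm genes summed to 1950 to 2953 CPM in E7.5 controls, and 6 genes of maternal decidua and blood to 61.5 to 116 CPM. Gene models under 80 nucleotides fell into separate ranges that follow the groups: they summed to 29.1 to 51.9 CPM in all E7.5 pools of the Oct4 line and to 31.3 to 36.8 CPM in Nanog E7.5 controls, but to 0.575 to 1.125 CPM in Nanog E7.5 induced pools and to 0.634 to 2.02 CPM in all E9.5 pools. This split cannot be told apart from Nanog induction at E7.5, or from stage in the controls. Mitochondrial genes took 3.30% to 8.26% of counts at E7.5 and 2.23% to 2.88% at E9.5. Leaving the short models and mitochondrial genes out changed no count of called members, and the part of these differences in the results was not tested further.

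**Figure D1:**
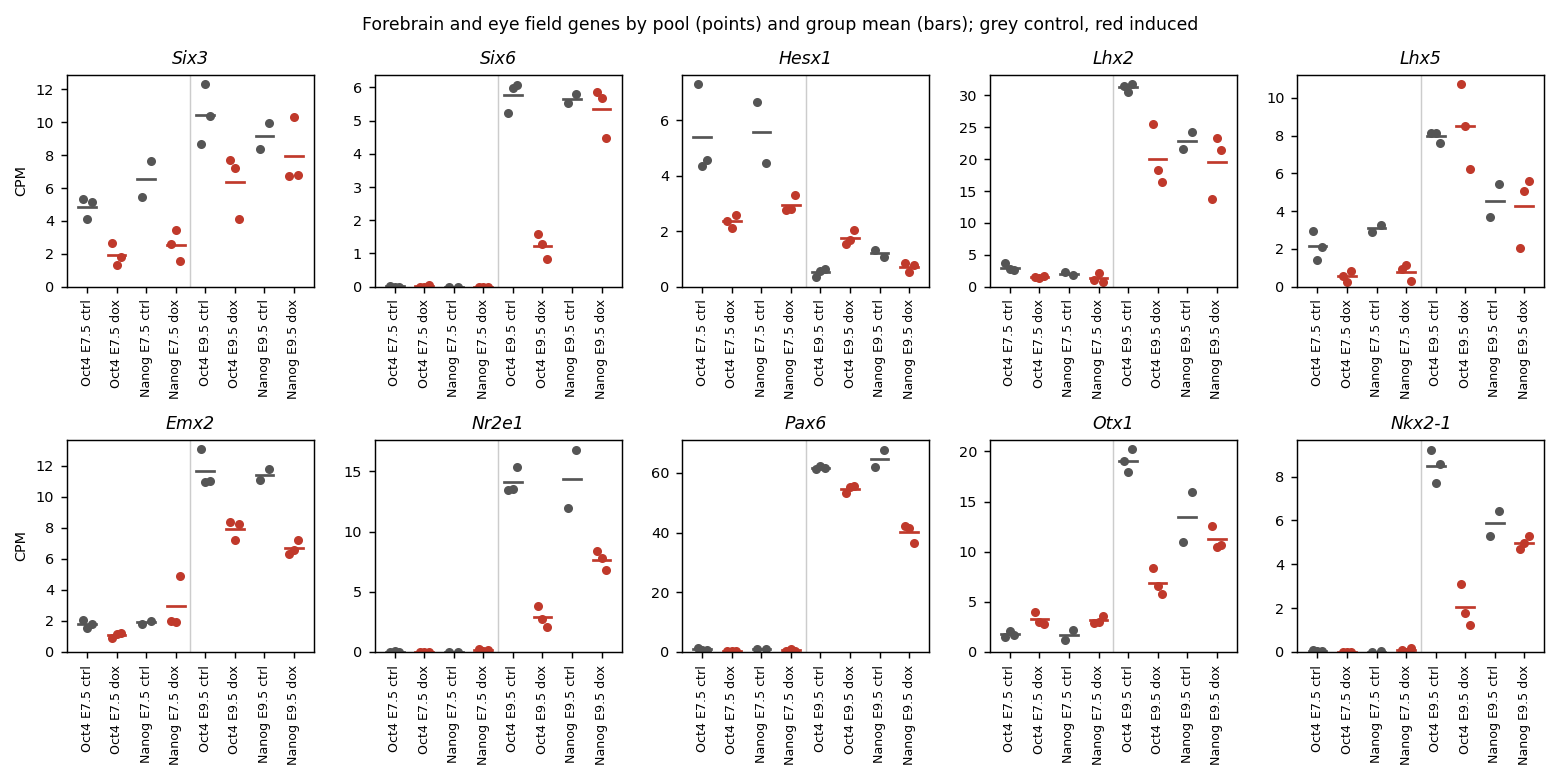
Level of each of the 10 genes in CPM (vertical axis, linear from 0) in every pool, by line, stage and doxycycline (dox); points are pools, bars are group means, grey is control and red is induced. Six6, Nr2e1 and Nkx2-1 sit near 0 at E7.5, and at E9.5 their red points of the Oct4 line lie below every grey point.

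In control embryos the network was present in part at E7.5 and as a whole at E9.5. Summed over the 10 genes, controls read 19.98 ± 3.75 CPM (SD, n = 3) at E7.5 and 171 ± 1.93 CPM (n = 3) at E9.5 in the Oct4 line, and 21.9 ± 0.793 (n = 2) and 153 ± 16.6 CPM (n = 2) in the Nanog line. In the Oct4 line 9 members rose from E7.5 to E9.5 and 1 fell, all 10 in each of 6 fits that left out 1 pool. Of all genes tested, 73.5% were called, 36.5% higher and 37.1% lower, and the pools of 77.1% did not overlap, so that a call by itself says little in this comparison. The median log2 fold change of the 10 genes was 3.21, against -0.02 over all genes tested. In the Nanog line 7 rose and 1 fell, against 31.8% and 32.0% of all genes (63.8% in all, with 82.8% not overlapping), and the median was 3.15 against 0.01.

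Per kilobase of the longest coding transcript, Hesx1 ranked first among the members in E7.5 controls of both lines and last at E9.5. Hesx1 is a paired-like homeobox repressor of the earliest anterior neural plate and, later, of the pituitary primordium (chr 14, 27813548 to 27815515, NCBIM37). It read 7.31, 4.37 and 4.56 CPM in the Oct4 line controls at E7.5 and 0.335, 0.564 and 0.648 CPM at E9.5. Every E7.5 pool was above every E9.5 pool, and the fitted log2 fold change was -3.56 ± 0.33 (SE, adjusted p = 2.23e-06). In the Nanog line it read 6.68 and 4.45 CPM at E7.5 and 1.33 and 1.08 CPM at E9.5 (-2.24 ± 0.34, adjusted p = 7.55e-05). Its per-length level at E7.5 was 4.74 CPM per kb in the Oct4 line, and the next member, Lhx2, was at 1.31 CPM per kb with no overlap between pools.

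Six6, a paralog of Six3 that acts in the retina and pituitary, Nr2e1 (also named Tlx), an orphan nuclear receptor of neural progenitors, and Nkx2-1 were at or close to 0 at E7.5. Over the 3 Oct4 line controls, Six6 (chr 12, 74040932 to 74045886) had 1 count at E7.5 and 179 counts at E9.5, a 646-fold ratio of CPM whose counting interval ran from 114 to 25650. Nr2e1 (chr 10, 42281769 to 42303438) had 3 and 432 counts, a ratio of 520 (177 to 2529). Nkx2-1 (chr 12, 57632922 to 57637895) had 5.8 and 258 counts, a ratio of 161 (70.3 to 427). Against 3 counts over both Nanog line controls at E7.5, Six6 was at least 28.6-fold higher at E9.5 and Nr2e1 at least 72.4-fold. Nkx2-1 had 0.36 counts there and was likewise at least 29.6-fold higher. These intervals and bounds cover counting error alone.

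Pax6, a paired-box factor that the eye and dorsal forebrain need (chr 2, 105509053 to 105543317), read 1.23, 0.768 and 0.676 CPM in Oct4 line controls at E7.5 and 61.2, 62.4 and 61.8 CPM at E9.5. Its log2 fold change was 5.96 ± 0.14 (adjusted p = 1.79e-10). Pools of whole embryos do not show in which part of the embryo RNA of Pax6, or of any other member, was made. The exons of Pax6 share 27.9% of their bases with Elp4 on the other strand, and since the sources used here do not say whether the counts keep strand, reads of both genes cannot be told apart there. Lhx2 (chr 2, 38194801 to 38225253), a LIM-homeobox factor that optic vesicle growth needs, rose 3.19 ± 0.13 on the log2 scale in the Oct4 line and 3.46 ± 0.20 in the Nanog line. Otx1 (chr 11, 21894767 to 21902900), a bicoid-type homeobox gene of forebrain and midbrain, rose 3.23 ± 0.16 and 2.85 ± 0.30. Emx2 (chr 19, 59533180 to 59539847), a homeobox gene of the dorsal telencephalon and the urogenital ridge, rose 2.51 ± 0.17 and 2.51 ± 0.23.

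Six3 and Lhx5 changed least with stage. Six3 (chr 17, 86012948 to 86031153) is the homeobox gene that the anterior neural plate needs to repress Wnt signals, and it rose 0.92 ± 0.17 in the Oct4 line (adjusted p = 0.000426). In the Nanog line it read 5.47 and 7.61 CPM at E7.5 and 8.39 and 9.94 CPM at E9.5 (0.41 ± 0.21, adjusted p = 0.107). Lhx5 (chr 5, 120881895 to 120891466), a LIM-homeobox gene of the early forebrain and of the caudal diencephalon, rose 1.70 ± 0.23 in the Oct4 line (adjusted p = 5.31e-05). In the Nanog line its log2 fold change was 0.49 ± 0.30 (adjusted p = 0.164). Without E7.5 control 3 of the Nanog line, Six3 passed the test (0.67, adjusted p = 0.0468), and in the other 3 fits that left out 1 pool it did not.

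Per length, the order in Oct4 line controls at E9.5 was Lhx2 (13.6 CPM per kb), Pax6 (7.35), Otx1 (6.84), Emx2 (4.49), Nr2e1 (4.31), Nkx2-1 (3.001), Lhx5 (2.91), Six3 (1.96), Six6 (1.46) and Hesx1 (0.452). The pools of Emx2 and Nr2e1 overlapped, as did those of Nkx2-1 and Lhx5, and the other neighbours did not. In Nanog line controls Lhx2 and Pax6 (7.72 CPM per kb) again led and Hesx1 (1.06) was last. Levels per kilobase rest on the annotated length: with the union of all exons Pax6, whose exons sum to 19833 bases against 8401 for its longest coding transcript, would be lower. By that length, Otx1 (3.52 CPM per kb) and Pax6 (3.12) came after Emx2 (4.35) and Nr2e1 (3.81) in Oct4 line controls at E9.5. In Nanog line controls at E9.5, Six3 (1.05) was then last and Hesx1 (1.06) just above it.

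**Figure D2:**
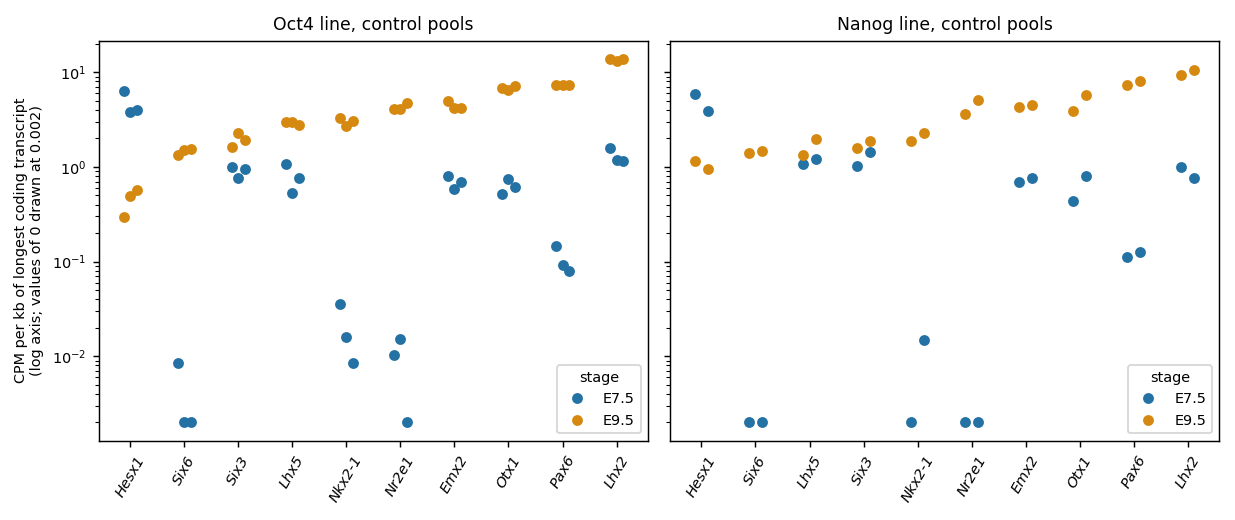
Levels of the 10 genes in control pools, in CPM per kilobase of the longest coding transcript (vertical axis, logarithmic, with values of 0 drawn at 0.002), for the Oct4 line on the left and the Nanog line on the right; blue is E7.5 and orange E9.5, and each point is a pool. Hesx1 is the gene whose blue points lie above its orange points, and Six6, Nr2e1 and Nkx2-1 span the longest distance.

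After Oct4 induction, embryos at E7.5 held less RNA of 4 early forebrain genes. Hesx1, Six3, Lhx2 and Lhx5 fell, while Otx1 rose. The test was possible for 7 members, of which 4 were called lower and 1 higher, beside 3.91% of all genes called lower, 2.25% called higher and 6.17% called in all. Six6, Nr2e1 and Nkx2-1 had too few counts. The median log2 fold change of the 7 was -1.16, against 0.02 over all genes tested. Control and induced pools did not overlap for any of the 7, as for 23.0% of all genes tested. In whole embryos, fewer cells of a type and less RNA per cell cannot be told apart.

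Six3 read 5.34, 4.13 and 5.15 CPM in controls and 2.64, 1.33 and 1.78 CPM in induced pools. Every induced pool was below every control, with a log2 fold change of -1.30 ± 0.24 (adjusted p = 0.0143). Hesx1 read 7.31, 4.37 and 4.56 CPM in controls and 2.37, 2.13 and 2.57 CPM in induced pools. Control 1 was the highest, the induced pools were close together, and the log2 fold change was -1.16 ± 0.22 (adjusted p = 0.017). Lhx5 read 2.96, 1.44 and 2.08 CPM in controls and 0.576, 0.227 and 0.845 CPM in induced pools. This was the largest change among the members tested (-1.97 ± 0.42, adjusted p = 0.0254). Lhx2 went from 3.67, 2.70 and 2.65 CPM to 1.60, 1.33 and 1.61 CPM (-0.95 ± 0.20, adjusted p = 0.0254).

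Otx1 went the other way, from 1.46, 2.07 and 1.73 CPM in controls to 4.02, 2.98 and 2.81 CPM in induced pools (0.93 ± 0.22, adjusted p = 0.0374). Its induced level per length, 1.172 CPM per kb, put it next after Hesx1, whereas in controls 5 members were above it. Emx2 read 2.07, 1.51 and 1.80 CPM and 0.898, 1.14 and 1.21 CPM (-0.70 ± 0.23, adjusted p = 0.13), and Pax6 1.23, 0.768 and 0.676 CPM and 0.410, 0.230 and 0.482 CPM (-1.23 ± 0.36, adjusted p = 0.0899). Neither passed the test, but in 1 model over all libraries Pax6 did (adjusted p = 0.00346). Nkx2-1 had 5.8 counts over 3 controls and 0 over 3 induced pools, which allows up to 0.0299 CPM over the induced group, beside a control mean of 0.057 CPM.

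None of these 5 calls held in every fit that left out 1 pool, although no direction changed. Without control 1 the adjusted p was 0.0711 for Six3, 0.0855 for Lhx2, 0.109 for Lhx5 and 0.131 for Otx1. Without control 3 it was 0.0672 for Six3, 0.071 for Lhx2, 0.0817 for Lhx5 and 0.156 for Otx1. Without induced pool 3 it was 0.0697 for Six3, 0.0558 for Hesx1, 0.0823 for Lhx2 and 0.0721 for Otx1. Lhx2 (0.0574) and Otx1 (0.0566) were also lost without control 2, and Lhx5 (0.0593) and Otx1 (0.0904) without induced pool 1. Hesx1, lost in 1 of 6 fits, was the most stable of the 5, and without induced pool 2 all 5 passed.

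In the same pools, 6 of 12 genes of the anterior organiser, the tissues that signal to the anterior neural plate, were higher and 0 lower (median 0.46). Cer1, a secreted antagonist of Nodal, Wnt and BMP signals, went from 24.4 ± 3.45 to 53.4 ± 10.7 CPM (1.168 ± 0.15, adjusted p = 0.00225). Lhx1, a LIM-homeobox gene of the organiser, went from 12.3 ± 1.76 to 68.6 ± 28.1 CPM (2.52 ± 0.29, adjusted p = 0.00293), and these 2 calls held in every fit that left out 1 pool. Lefty1 (4.29 ± 0.63) and Gsc (3.03 ± 0.53) were next by p. Among 20 other anterior neural genes 8 were tested: Otx2 (0.79 ± 0.17) and Tcf7l2 (0.58 ± 0.10) were higher and Foxd4 (-1.76 ± 0.21) and Irx3 (-0.73 ± 0.12) lower, of which Foxd4 held in every such fit. Of 8 tested midbrain and hindbrain genes 5 were lower and 0 higher, with a median of -1.25. Among them, Hoxa2 (-2.80 ± 0.25), Gbx2 (-1.76 ± 0.19), Hoxb1 (-1.61 ± 0.21) and Pax2 (-2.23 ± 0.33) were lower in every such fit. Of 6 pan-neural genes tested, 1 was lower, the brain fatty acid binding protein gene Fabp7 (-1.61 ± 0.18).

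Genes from lists named for other tissues were also lower in the induced pools. Among them were Tbx4, Tbx5 and Lmx1b of 5 limb bud genes and Pitx1 of 6 tested placode genes. Osr1 of 5 urogenital genes and Nkx2-3 of 3 tested foregut genes were lower too. A list name does not show that the tissue was present at E7.5. Of 3 tested spinal cord genes 0 were called. The 6 maternal genes summed to 61.5 to 116 CPM in controls and 82.1 to 113 CPM in induced pools, with S100a9 (1.45 ± 0.35) and Prf1 (1.36 ± 0.25) called higher, and 0 of 6 visceral endoderm genes were called. Their part in the member values was not tested.

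Nanog induction at E7.5 gave values of the same sign for Six3, Hesx1, Lhx2, Lhx5 and Otx1, but no member passed the test. Of 6 members tested 0 were called, beside 7.78% of all genes (2.96% higher and 4.82% lower). At an unadjusted p under 0.05 there were 4 (Six3, Hesx1, Lhx5 and Otx1), and DESeq2 and limma-voom called 0. The median log2 fold change was -0.66, against 0.00 over all genes. Pools did not overlap for 4 of the 6, as for 45.3% of all genes tested in this comparison of 2 with 3 pools.

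Six3 read 5.47 and 7.61 CPM in controls and 2.57, 3.46 and 1.58 CPM in induced pools, with no overlap (-1.25 ± 0.35, adjusted p = 0.0614). Lhx5 read 2.90 and 3.29 CPM in controls and 0.915, 1.13 and 0.288 CPM in induced pools (-1.79 ± 0.48, adjusted p = 0.0559). Hesx1 read 6.68 and 4.45 CPM and 2.75, 2.81 and 3.31 CPM (-0.87 ± 0.30, adjusted p = 0.117). These 3 genes were below the controls in all 3 induced pools. Otx1 was above them in all 3, at 2.93, 3.04 and 3.60 CPM against 1.22 and 2.23 CPM (0.90 ± 0.38, adjusted p = 0.187). Lhx2 (2.28 and 1.76 CPM against 1.10, 2.08 and 0.719 CPM) and Emx2 (1.82 and 1.99 CPM against 2.02, 1.92 and 4.89 CPM) overlapped, the latter with 1 high induced pool, replicate 4. Pax6, with 3 to 9 counts in 4 of the 5 pools, was not tested, nor were Six6, Nr2e1 and Nkx2-1.

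Other settings called some of these members. Without the low count filter the adjusted p was 0.0104 for Six3 and 0.0119 for Lhx5. With all 22 libraries in 1 model the adjusted p was 0.0109 for Six3, 0.0278 for Hesx1, 0.0157 for Lhx5 and 0.0442 for Otx1. Against the Oct4 line controls 5 members passed, with Lhx2 at 0.0467 besides these 4, but that comparison mixes induction with line. Around these members, Otx2 (1.07 ± 0.13) was higher and Foxd4 (-3.21 ± 0.47) lower of 6 other anterior neural genes tested, and Otx2 held in every fit that left out 1 pool. Of 12 organiser genes 6 were higher (Chrd, Dkk1, Cer1 and Lhx1 the lowest in p) and Shisa2 was lower, none in every such fit. Pax2 was lower of 6 midbrain and hindbrain genes and Fabp7 of 6 pan-neural genes. In the lists named for other tissues, Olig3, Osr1, Tbx4, Lmx1b, Maf, Eya1 and Pitx1 were among those lower, and Wt1 was higher. These list names do not show tissues present at E7.5. The induced Nanog pools also carried 4 of 6 visceral endoderm genes (Ttr, Apoa1, Amn and Hnf4a) at lower levels, with sums of 857 to 1197 CPM against 1950 to 2143 CPM in controls. The maternal genes summed to 52.8 to 233 CPM against 76.7 to 111 CPM, none of 4 tested being called. Mitochondrial genes took 5.27% to 8.26% of counts in induced Nanog pools and 3.30% to 3.63% in their controls, and short gene models summed to 0.575 to 1.125 CPM and 31.3 to 36.8 CPM, so neither range overlapped. With both left out of the fit, 0 members were called, as with them. Beyond that, whether these differences move the member values was not tested.

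The response to Oct4 and the response to Nanog at E7.5 were compared directly as an interaction over 4 groups. No member of 7 tested differed by edgeR (0 also by DESeq2 and limma-voom), beside 0.204% of all genes (0.138% higher, 0.0659% lower), and 1, Emx2, had an unadjusted p under 0.05. The absence of a call does not show that the responses were alike.

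At E9.5 the members with almost no RNA at E7.5 had the largest falls after Oct4 induction. Six6, Nr2e1 and Nkx2-1 each fell by 2.01 or more on the log2 scale, and Otx1, which had been higher at E7.5, fell too. Of 10 members tested, 7 were called lower and 1, Hesx1, higher, beside 4.61% and 4.69% of all genes and 9.29% in all. The median log2 fold change was -0.68, against 0.00 over all genes. Pools did not overlap for 9 of the 10, as for 27.7% of all genes tested. Summed over the 10 genes the level went from 171 ± 1.93 to 112 ± 10.8 CPM (n = 3 and 3).

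Nr2e1 read 13.5, 13.6 and 15.4 CPM in controls and 3.85, 2.76 and 2.05 CPM in induced pools. The highest induced pool was far below the lowest control, and the log2 fold change was -2.25 ± 0.19 (adjusted p = 4.82e-07). Six6 read 5.24, 5.997 and 6.09 CPM in controls and 1.58, 1.27 and 0.845 CPM in induced pools (-2.23 ± 0.26, adjusted p = 1.94e-05). Its induced values rest on 6 to 16.4 counts a pool. Nkx2-1 read 9.21, 7.71 and 8.57 CPM in controls and 3.11, 1.79 and 1.25 CPM in induced pools (-2.01 ± 0.25, adjusted p = 4.14e-05). Otx1 read 19.1, 18.0 and 20.2 CPM in controls and 8.37, 6.57 and 5.79 CPM in induced pools (-1.44 ± 0.14, adjusted p = 2.23e-06). All 4 calls held in each of 6 fits that left out 1 pool, with the adjusted p at most 0.00109. Nkx2-1 also marks the thyroid and lung buds: of 4 other foregut and thyroid genes tested, 0 were called, and their sums were 16.0 to 16.7 CPM in controls and 16.6 to 20.4 CPM in induced pools.

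Six3, Lhx2, Emx2 and Pax6, which were already present at E7.5, moved less. Otx1 and Hesx1 were present at E7.5 too, but moved more than these. Six3 read 8.70, 12.3 and 10.4 CPM in controls and 7.69, 7.22 and 4.10 CPM in induced pools (-0.76 ± 0.21, adjusted p = 0.0371). Lhx2 read 31.6, 30.5 and 31.7 CPM and 25.6, 18.2 and 16.4 CPM (-0.61 ± 0.13, adjusted p = 0.0182), and Emx2 13.05, 10.9 and 11.01 CPM and 8.37, 7.21 and 8.21 CPM (-0.54 ± 0.14, adjusted p = 0.0207). Their groups did not overlap, but these calls were not stable. Six3 was lost without control 2 (0.188), control 3 (0.074), induced pool 4 (0.0802) or induced pool 5 (0.147), by DESeq2 (0.131) and by limma-voom (0.0526). Lhx2 was lost without control 1 (0.066), control 2 (0.0746), control 3 (0.0597) or induced pool 4 (0.0824). Emx2 was lost without control 1 (0.0716), control 2 (0.0533), induced pool 3 (0.0631), induced pool 4 (0.0709) or induced pool 5 (0.0633), and by DESeq2 (0.214). Pax6 read 61.2, 62.4 and 61.8 CPM in controls and 53.2, 55.3 and 55.7 CPM in induced pools. Its difference was small and did not pass the test (-0.19 ± 0.06, adjusted p = 0.0545). Pax6 passed by limma-voom (0.0462) and without the low count filter (0.04655). In 1 model over all libraries Six3 (0.198), Lhx2 (0.127) and Emx2 (0.283) were not called.

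Hesx1 was the member that rose, from 0.335, 0.564 and 0.648 CPM in controls to 1.54, 1.70 and 2.05 CPM in induced pools (1.73 ± 0.40, adjusted p = 0.00927). Every induced pool was above every control, on 3 to 8 counts a control and 8 to 17 counts an induced pool. The call was lost without control 2 (0.0572) or induced pool 5 (0.0714), and DESeq2 gave no adjusted p for Hesx1 here. The induced level was below the 4.37 to 7.31 CPM of E7.5 controls. Lhx5 read 8.16, 8.11 and 7.59 CPM in controls and 10.7, 8.48 and 6.26 CPM in induced pools, which span the controls (0.09 ± 0.18, adjusted p = 0.815; -0.15 without induced pool 3). An interval of 1.96 SE around it runs from -0.26 to 0.44.

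**Figure D3:**
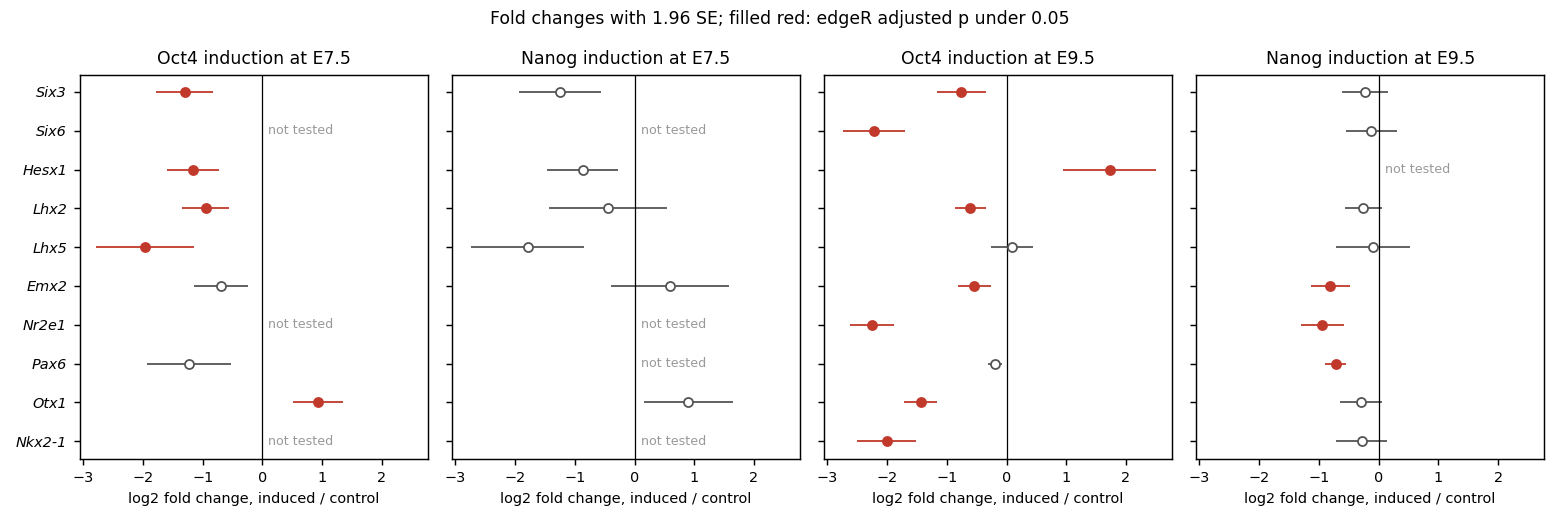
Log2 fold change of induced over control pools (horizontal axis) for each of the 10 genes in the 4 inductions, with bars of 1.96 SE; filled red marks an edgeR adjusted p under 0.05, open grey a tested gene that was not called. At E9.5 after Oct4 induction Six6, Nr2e1 and Nkx2-1 sit near -2 and Hesx1 to the right of 0, and after Nanog induction the filled points are Emx2, Nr2e1 and Pax6.

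Other neural genes of the same Oct4 E9.5 pools did not move as a block. Of 20 other anterior neural genes 15 were tested, 5 fell and 2 rose (median -0.36). Among those that fell were Fezf2 (-1.67 ± 0.33), Dlx1 (-0.86 ± 0.19) and Dlx2 (-0.48 ± 0.12), while Irx3 (0.67 ± 0.07) and Sp8 (0.30 ± 0.08) rose. Of these 5 genes, Fezf2 and Irx3 held in every fit that left out 1 pool. Rax, a homeobox gene of the eye field, was tested and not called, and was named after its value was seen.

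Of 11 midbrain and hindbrain genes 4 rose and 2 fell (median 0.40). The isthmus and midbrain genes En2 (-1.19 ± 0.16) and Pax5 (-1.39 ± 0.28) fell. The hindbrain genes Egr2 (3.42 ± 0.36), Hoxb1 (0.99 ± 0.11), Gbx2 (0.88 ± 0.10) and Hoxa2 (0.55 ± 0.09) rose, Egr2 from 1.03 ± 0.224 to 11.3 ± 4.92 CPM. All but Pax5 held in every fit that left out 1 pool. Of 7 pan-neural genes Nes (-0.72 ± 0.07), Fabp7 (-0.79 ± 0.14) and Zic1 (-0.99 ± 0.07) fell and Ncam1 (0.42 ± 0.09) rose. All but Ncam1 held in every such fit. Of 7 spinal cord progenitor genes 4 fell and 0 rose, Nkx6-2, Dbx1, Pax7 and Olig2, the last from 14.5 ± 0.306 to 2.37 ± 0.355 CPM (-2.60 ± 0.17, adjusted p = 1.91e-08). Their summed level went from 89.6 to 97.8 CPM in controls to 53.5 to 66.1 CPM in induced pools. Of the 4 that fell, only Olig2 and Dbx1 held in every such fit.

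Emx2 and Hesx1 are also genes of tissues outside the neural tube. Of 5 urogenital ridge genes 0 were called after Oct4 induction at E9.5, with sums of 43.7 to 53.5 CPM in controls and 55.97 to 69.5 CPM in induced pools. Of 6 tested lens and pituitary placode genes 0 were called, with sums of 125 to 131 CPM and 127 to 140 CPM, and Cryaa was at 0 in the induced pools. Of 12 genes of the anterior organiser list 10 were tested: Dkk1, Lefty1, Sfrp1 and Lhx1 rose and Foxa2 fell. The list name does not show that the organiser was present at E9.5. Only Lefty1 and Sfrp1 of these held in every fit that left out 1 pool. Hand2 of 5 limb bud genes and Apoa1 of 5 tested visceral endoderm genes rose, neither in every such fit.

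After Nanog induction at E9.5, 3 members were lower. Pax6, Nr2e1 and Emx2 fell, and Six3, Six6, Lhx2, Lhx5, Otx1 and Nkx2-1 did not pass the test. Of 9 members tested 3 were called lower and 0 higher, beside 13.0% and 15.4% of all genes and 28.4% in all, so that the share of called members was close to that of all genes. At an unadjusted p under 0.05 the count was also 3, and DESeq2 and limma-voom called 3. The median log2 fold change was -0.29, against 0.00 over all genes, and pools did not overlap for 4 of the 9, as for 53.9% of all genes. The induced pools held 4.77 to 5.63 M counts and the controls 15.7 to 15.8 M counts.

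Pax6 read 61.9 and 67.7 CPM in controls and 42.4, 41.7 and 36.7 CPM in induced pools. The groups were far apart, with a log2 fold change of -0.72 ± 0.09 (adjusted p = 3.7e-05). Nr2e1 read 11.9 and 16.8 CPM in controls and 8.38, 7.81 and 6.80 CPM in induced pools (-0.94 ± 0.18, adjusted p = 0.00153). Emx2 read 11.04 and 11.8 CPM in controls and 6.28, 6.57 and 7.19 CPM in induced pools (-0.81 ± 0.17, adjusted p = 0.00253). All 3 held in each of 5 fits that left out 1 pool.

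Six6 read 5.52 and 5.81 CPM in controls and 5.87, 5.68 and 4.47 CPM in induced pools, which overlapped (-0.12 ± 0.21, adjusted p = 0.707). Nkx2-1 read 5.30 and 6.42 CPM and 4.68, 4.97 and 5.29 CPM (-0.29 ± 0.22, adjusted p = 0.342), and Otx1 10.97 and 15.9 CPM and 12.6, 10.5 and 10.7 CPM (-0.30 ± 0.18, adjusted p = 0.223). The pools of Otx1 overlapped, and those of Nkx2-1 did not, by a narrow margin (5.30 CPM in the lowest control and 5.29 CPM in the highest induced pool). Six3 (9.17 ± 1.09 and 7.93 ± 2.05 CPM), Lhx2 (22.9 ± 1.91 and 19.5 ± 4.99 CPM) and Lhx5 (4.55 ± 1.24 and 4.25 ± 1.93 CPM) overlapped as well. Hesx1, at 1.33 and 1.08 CPM in controls and 0.838, 0.533 and 0.777 CPM in induced pools on 3 to 4 counts each, was not tested. Against the Oct4 line E9.5 controls, Lhx2, Otx1 and Nkx2-1 passed as well (adjusted p = 0.0103, 0.00215 and 0.033), while the call count over all genes went from 3772 to 390. That comparison mixes induction with line. The controls of the lines read 19.1 ± 1.11 CPM (Oct4) and 13.4 ± 3.48 CPM (Nanog) for Otx1.

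Around these members, 3 of 14 tested anterior neural genes fell, among them Otx2 (-0.40 ± 0.10) and Fezf1 (-0.88 ± 0.31), and Dlx2 (0.66 ± 0.17) and Irx3 (0.91 ± 0.10) rose. Irx3 held in every fit that left out 1 pool. Of 10 midbrain and hindbrain genes 5 rose and 0 fell, among them Pax5 (1.08 ± 0.28), Wnt1 (0.67 ± 0.24), Fgf8 (0.61 ± 0.21) and Gbx2 (0.43 ± 0.15), but none held in every such fit. Sox2, the neural progenitor factor and partner of Oct4, fell from 104.6 ± 12.5 to 77.4 ± 6.13 CPM (-0.47 ± 0.08, adjusted p = 0.001) and held in every such fit. Nes (-0.25 ± 0.06) and Fabp7 (-0.89 ± 0.20) fell and Sox3 rose (0.50 ± 0.13), but none of these held in every such fit. Of 9 tested genes of the organiser list Sfrp1 fell, and of the lists of other tissues Pitx1, Foxc2 and Nkx2-3 rose. Among these, only Pitx1 and Foxc2 held in every such fit. Of 7 spinal cord genes and of 5 limb bud genes 0 were called.

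**Figure D4:**
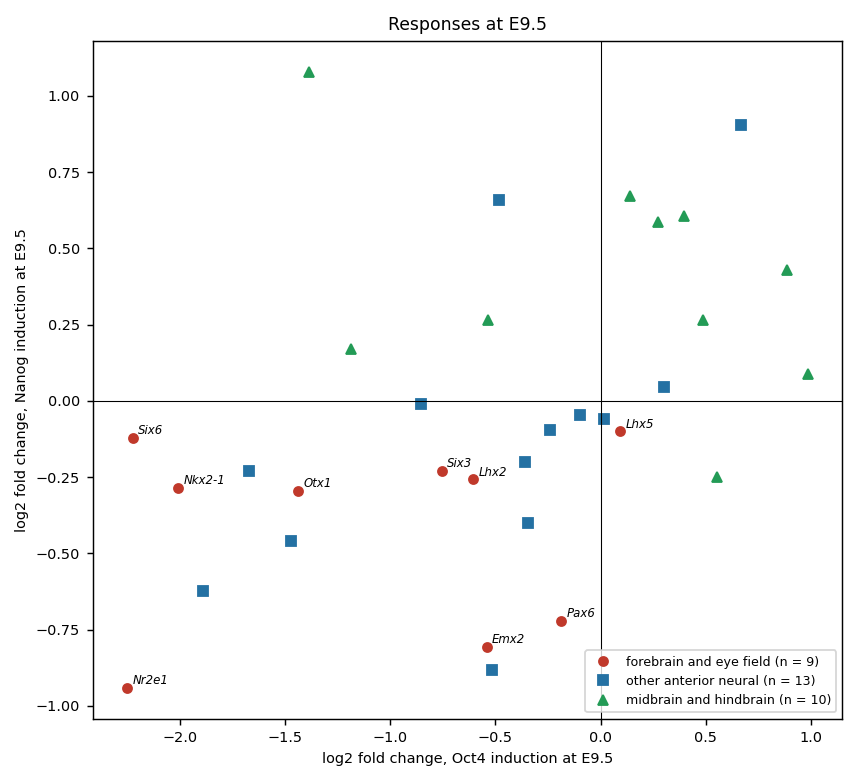
Log2 fold change after Oct4 induction (horizontal axis) against that after Nanog induction (vertical axis) at E9.5, for the 9 forebrain and eye field genes tested in both, 13 other anterior neural and 10 midbrain and hindbrain genes; each point is a gene. Six6, Nkx2-1 and Otx1 lie far to the left and close to the horizontal line, Nr2e1 is low on both axes, and Pax6 is low on the vertical axis alone.

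Tested as an interaction, the responses to Oct4 and to Nanog at E9.5 differed for 6 of 10 members, beside 13.5% of all genes. The Oct4 response was the lower one for Six6 (difference of log2 fold changes -2.10 ± 0.34, adjusted p = 0.000334), Nkx2-1 (-1.72 ± 0.35, adjusted p = 0.00234), Nr2e1 (-1.31 ± 0.28, adjusted p = 0.00402) and Otx1 (-1.14 ± 0.23, adjusted p = 0.00253), beside 7.92% of all genes. It was the higher one for Hesx1 (2.53 ± 0.63, adjusted p = 0.01) and Pax6 (0.54 ± 0.10, adjusted p = 0.00112), beside 5.57%. Nr2e1 therefore fell under both factors, and by more under Oct4, whereas Pax6 was lower under Nanog. The calls of all 6 but Hesx1 held in each of 11 fits that left out 1 pool. Hesx1 was lost without Nanog control 2 (0.0739) and by DESeq2 (0.0563). In 1 model over all libraries Nr2e1 (0.0851), Pax6 (0.164) and Nkx2-1 (0.0708) were lost.

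The response to Oct4 also differed between stages. The difference (E9.5 minus E7.5) was called for 4 of 10 members, beside 6.69% of all genes, 3 higher at E9.5 (4.84% of all genes) and 1 lower (1.85%). Six6, Nr2e1 and Nkx2-1, among these 10, had under 10 counts over the E7.5 pools and give no value for this difference. Otx1 had been higher at E7.5 and fell at E9.5, a difference of -2.39 ± 0.26 (adjusted p = 4.885e-05). Hesx1 fell at E7.5 and rose at E9.5 (2.90 ± 0.42, adjusted p = 0.000514), and Lhx5 fell at E7.5 while its E9.5 pools spanned the controls (2.06 ± 0.47, adjusted p = 0.0161). Pax6 had a difference of 1.03 ± 0.28 (adjusted p = 0.0384). Otx1 and Hesx1 held in all 12 fits that left out 1 pool, Lhx5 was lost without E9.5 induced pool 3 (0.0625), and Pax6 held in 3 of 12 fits (its adjusted p without E7.5 control 1 was 0.116, without E7.5 induced pools 1 or 2 0.0503 and 0.0943, without E9.5 controls 1, 2 or 3 0.0759, 0.0748 and 0.0712, and without E9.5 induced pools 3, 4 or 5 0.071, 0.0748 and 0.0813) and was lost by limma-voom (0.105). Embryos at E9.5 had been exposed from a later start (E6.5 against E4.5) and through drinking water, where E7.5 exposure began with an injection. Their pools held 3 embryos, against 8 to 12 at E7.5. Stage, start and route of exposure, and pool size therefore cannot be told apart in either line.

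For the Nanog line 0 of 10 members were called for a difference between stages, beside 12.8% of all genes (8.02% higher and 4.79% lower). At an unadjusted p under 0.05 there were 5 (Six3, Lhx5, Emx2, Nr2e1 and Otx1), and DESeq2 and limma-voom called 0. Six6, Nr2e1 and Nkx2-1 had under 10 counts over the E7.5 pools of this line too, so they give no value for this difference. Nr2e1 had 0 counts in the E7.5 controls and 6 over the induced pools.

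Across the 22 libraries, the genes most like each member were taken by Pearson's r of log2 CPM among 12511 genes, and the libraries share stage and line, so that the values are a description. Six3 was most like Dmbx1 (r = 0.946), Six6 and Nkx2-1 like Zic4 (0.985 for both), Otx1 like Olig2 (0.974), and Hesx1 like Cdx2 (0.939) and Lin28a (0.912). Pax6 was most like Sncaip, Lix1 and Alg2 (0.994 each), Lhx2 like Trim62 (0.987), Emx2 like Nrbp2 (0.978) and Lhx5 like Tal2 (0.953). Among the genes nearest to Nr2e1 were Pou3f4 (0.984) and Rmst (0.982). Among the members themselves Nr2e1 and Nkx2-1 were the closest pair (0.992), and Hesx1 ran against the other 9, with r from -0.953 with Otx1 to -0.497 with Lhx5.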

How the data were processed

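RNA of 22 pools of whole embryos was measured, and the values used are RSEM expected counts per gene that the authors deposited without normalization, as far as the values show. Per the submitters' processing notes the build was NCBIM37, and the tools named are Picard, RSEM (1.17), limma and cutadapt, with no order given; whether the counts keep strand is not given in the sources used here. Of the values of a library, 12.8% to 21.4% are not whole, because RSEM divides reads between genes that share them. Per the labels' protocols 2 sequencers were used, without saying which read each library.

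Counts were rounded and tested in R 4.3.3 by edgeR 4.0.16 (glmQLFit, robust, and glmQLFTest, after TMM scaling and filterByExpr), each comparison on its own groups and two-sided. A gene was called where its p, adjusted over all genes tested by Benjamini and Hochberg, was under 0.05. Differences between responses are interaction contrasts over 4 groups. Every adjusted p is from this test unless DESeq2 1.42.0 or limma-voom (limma 3.58.1) is named. Levels are CPM by library total (mean ± SD over pools), and fold changes are on the log2 scale ± SE. Symbols, coordinates and lengths came from GENCODE mouse release 1 (Ensembl 65), which held 37309 of 37680 IDs, and promoters from RefSeq in GRCm38.p6. Proteins and strand-specific counts were not analysed here.

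The 10 members and the 11 lists of other genes (93 genes) were chosen with earlier results of these data known. All members are named in every comparison; of a list, every called gene where 5 or fewer were called in a direction, otherwise the 4 with the lowest p, besides genes among the 3 most like each member. A few genes that this rule names are not reported here, and counts over the lists include them. Totals ran from 4.72 to 42.3 M counts, so the floor of 3 counts was 0.0709 to 0.636 CPM; neither floors nor ratio intervals include more than counting error. Within groups, 20 pairs of libraries differed by a chi-square per degree of freedom of 1.6 to 67.1, so none was a copy. Alternatives were DESeq2 size factors, DESeq2, limma-voom, no low count filter, 1 model over all libraries, leaving out mitochondrial and short gene models, a replicate block, the other line's controls and leaving out each pool. The scripts were tested on simulated data.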

Additional observations from a re-analysis of the deposited data

Results flagged for a closer look

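Differences between the 2 inductions at E9.5 passed the interaction test for Six6 (-2.10), Nkx2-1 (-1.72), Nr2e1 (-1.31), Otx1 (-1.14), Hesx1 (2.53) and Pax6 (0.54), given as the log2 response to Oct4 minus that to Nanog. Six6, Nkx2-1 and Otx1 were called under Oct4 and not under Nanog, Nr2e1 under both, and Pax6 under Nanog and not under Oct4. Differences between stages in the response to Oct4 passed for Hesx1 (2.90), Lhx5 (2.06), Pax6 (1.03) and Otx1 (-2.39), given as E9.5 minus E7.5. For Hesx1 and Otx1 the 3 induced pools were on opposite sides of the controls at the 2 stages. No group held the 4 or more pools that a check for single outlying pools needs.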

How the results depend on the processing

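Results are member counts unless a gene is named. Leaving out 1 pool gave 1 to 5 called members for Oct4 at E7.5 (5 with all pools), 0 for Nanog at E7.5 (0), 4 to 7 for Oct4 at E9.5 (8), 3 for Nanog at E9.5 (3), 5 to 6 for Oct4 against Nanog at E9.5 (6), 2 to 4 for the stage difference under Oct4 (4) and 0 to 3 under Nanog (0). No low count filter gave 2 for Nanog at E7.5, 9 for Oct4 at E9.5 (Pax6 added) and 1 for the stage difference under Nanog. The controls of the Oct4 line gave 5 for Nanog at E7.5 and 6 at E9.5. One model over all 22 libraries gave 6 for Oct4 at E7.5 (Pax6 added), 4 for Nanog at E7.5 and 5 for Oct4 at E9.5. It also gave 3 for Oct4 against Nanog at E9.5 and 2 for the stage difference under Nanog. DESeq2 gave 5 for Oct4 at E9.5, where it had no adjusted p for Hesx1. With the replicate number as a block there were 4 calls for Oct4 at E7.5 (Otx1 lost, adjusted p = 0.051). There was 1 call each for Oct4 against Nanog at E9.5 and for both stage differences. No block fit was possible for Nanog at E7.5 and Oct4 at E9.5, where number 3 alone was in both control and induced pools. In block fits of differences between responses, these groups rest on that 1 pair. Call counts of such fits therefore cannot be set against those without the block. The correlations do not settle whether the numbers pair the pools. Same-numbered pools correlated at -0.051 to 0.313 in their deviations. For Oct4 at E7.5 the values were 0.229, 0.313 and -0.026. Controls 1 and 2 there were closest to the same-numbered induced pool, and control 3 to another. The block gave 1287 calls over all genes there (991 without it). Where a group has 2 pools, their deviations mirror each other, so such values cannot decide pairing. Lhx5 changed sign at E9.5: under Oct4 its log2 fold change ran from -0.15 to 0.29 over fits without 1 pool, and under Nanog from -0.35 to 0.21, and 0.23 with the block. The cause of these changes was not tested. Calls over all genes ran from 438 to 1101 without 1 pool for Oct4 at E7.5 (991; 1638 in the model over all libraries), from 161 to 1383 for Nanog at E7.5 (1099; 1721 without the filter, 3744 with controls of the Oct4 line and 2737 in the model over all libraries), from 625 to 1290 for Oct4 at E9.5 (1297; 312 in the model over all libraries and 599 by DESeq2), and from 1482 to 3487 for Nanog at E9.5 (3772; 2348 by DESeq2, 390 with controls of the Oct4 line and 1958 in the model over all libraries). They ran from 837 to 2178 for Oct4 against Nanog at E9.5 (1970; 229 in the model over all libraries and 691 with the block) and from 734 to 1361 for the stage difference under Oct4 (1094; 282 with the block), and from 807 (without Nanog E7.5 control 3) to 2376 under Nanog (1907). Oct4 against Nanog at E7.5 had 34, with 16 to 102 over fits without 1 pool, 13 by limma-voom, 56 without the filter, 95 with the block, 177 in the model over all libraries and 241 by DESeq2. Six6, Nr2e1 and Nkx2-1, with under 10 counts at E7.5, give no value for a change of response with stage, and Hesx1 at E9.5 rests on 3 to 21 counts a pool.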
